A study of Mus musculus with 45 samples.

Results

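The genes described here run meiotic resumption and metaphase arrest in the oocyte. These 10 genes, Cdk1, Ccnb1, Ccnb2, Ccnb3, Wee2, Cdc25a, Cdc25b, Mos, Fbxo43 and Plk1, were taken by symbol from a table of 26214 mouse genes. All 10 were listed, and all 10 passed the filter on low values in each comparison, a mean level of at least 1 TPM. TPM is a transcript level scaled to gene length and to the same sum in every library, so levels can be set beside each other between genes.

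A fully grown oocyte (FGO) waits at prophase of the first meiotic division, with the kinase Cdk1 held inactive by the oocyte kinase Wee2. Cdc25 phosphatases lift this inhibition, and Cdk1 bound to a B-type cyclin then drives the oocyte into division. The egg stops again at metaphase of the second division, where the kinase Mos and the F-box protein Emi2, the product of Fbxo43, keep the anaphase-promoting complex (APC/C) from destroying the B cyclins. Fertilization ends this arrest, and the kinase Plk1 takes part in entry into division and in the removal of Emi2. Much of the mRNA that an oocyte has stored for these steps is degraded between resumption and the two-cell stage.

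RNA-seq was made on pools of FGOs and on single embryos at the late two-cell stage to ask what a histone H3.3 with lysine 36 replaced by methionine (K36M) does to oocytes and to the embryos they give. Control mice carried the conditional allele alone (H3f3b K36M-flox/+), and K36M mice also carried Gdf9-Cre, which is driven by an oocyte gene promoter, so that the HA-tagged K36M histone is made in oocytes. The control FGOs and the K36M FGOs, 3 libraries each, were of hybrid C57BL/6 and 129 strain and came from females of 3 to 4 weeks of age. The embryos came from superovulated control or K36M females by in vitro fertilization with sperm of the JF-1 strain, carried the hybrid strain label crossed to JF-1, and were harvested 31 to 32 h after fertilization. There were 7 control and 8 K36M oocyte-derived embryos, and control embryo 4, which the study marked as excluded, was left out and is added back only where stated. Embryos are named here by the genotype of the mother. The paper expects K36M females crossed with wild-type males to give both H3f3b +/+ and H3f3b K36M/+ offspring. Which of these a K36M embryo carried is not given here. The labels do not say whether FGO pools or embryos of a group came from separate females. The p-values therefore rest on the spread between these libraries and may not cover that between females.

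TPM values do not hold the number of reads behind them, and the read totals of the libraries, which the study lists, were not used here. Between 16707 and 18559 genes were above 0 in the FGO libraries. In the embryos 12115 to 17329 genes (median 14786) were above 0 in control and 10894 to 14879 (median 12994) in K36M. Markers of the labelled stages were present: the summed level of 8 oocyte genes (such as Zp3 and Gdf9) was 12278 to 14179 TPM in FGOs and 436 to 1224 TPM in embryos, while that of 8 genes switched on in two-cell embryos (such as Zscan4d) was 34.5 to 73.9 TPM in FGOs and 270.4 to 2440.0 TPM in embryos.

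The 250 bases before the RefSeq start of 4 of the genes are printed here because Ccnb1 and Ccnb2 fell and Cdk1 rose between the stages compared below, and because Plk1 lay low in the same control embryos as Cdk1. The sequences are RefSeq's for GRCm38.p6, read 5′ to 3′ on the gene's strand, from chr13:100786487-100786736 (minus strand) for Ccnb1, chr9:70421555-70421804 (minus strand) for Ccnb2, chr10:69352913-69353162 (minus strand) for Cdk1 and chr7:122159185-122159434 (plus strand) for Plk1. Capitals mark CCAAT, the letters bound by the factor NF-Y, or its reverse complement ATTGG, and TTTGAA, a form of the cell cycle homology region (CHR) of genes of the division phase.
Ccnb1: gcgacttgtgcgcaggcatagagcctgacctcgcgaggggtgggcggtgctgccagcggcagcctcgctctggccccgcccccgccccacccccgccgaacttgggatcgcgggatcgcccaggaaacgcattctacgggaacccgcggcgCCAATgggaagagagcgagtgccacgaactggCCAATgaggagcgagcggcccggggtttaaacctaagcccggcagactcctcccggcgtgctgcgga
Ccnb2: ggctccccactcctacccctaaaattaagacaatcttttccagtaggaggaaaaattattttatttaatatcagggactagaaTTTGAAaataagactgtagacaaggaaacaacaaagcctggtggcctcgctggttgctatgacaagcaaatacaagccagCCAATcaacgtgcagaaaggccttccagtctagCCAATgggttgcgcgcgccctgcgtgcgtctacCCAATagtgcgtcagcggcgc
Cdk1: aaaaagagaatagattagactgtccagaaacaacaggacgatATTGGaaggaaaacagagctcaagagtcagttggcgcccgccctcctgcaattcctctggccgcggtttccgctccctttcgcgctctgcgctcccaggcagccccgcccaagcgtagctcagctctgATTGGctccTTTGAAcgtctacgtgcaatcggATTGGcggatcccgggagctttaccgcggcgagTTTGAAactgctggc
Plk1: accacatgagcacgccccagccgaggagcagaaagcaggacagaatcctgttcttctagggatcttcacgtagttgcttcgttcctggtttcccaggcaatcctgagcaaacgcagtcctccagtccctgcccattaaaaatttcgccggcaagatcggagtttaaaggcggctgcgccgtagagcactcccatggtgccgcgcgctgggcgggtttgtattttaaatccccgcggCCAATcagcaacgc
The reference table held a window of 250 bases before and 50 after the start for 8 of the 10 genes. CCAAT was found on either strand in 7 of these 8 windows, and on the gene's own strand in 4, against 37.4% of all 32851 windows on either strand and 21.1% on the gene's own. The CHR letters, searched as TTTGAA and TTCGAA on both strands, were found in 4 of 8 (Ccnb2, Cdc25b, Cdk1 and Plk1) against 19.2% of all windows. An E-box, searched as CANNTG, was found in 6 of 8 against 72.3% of all windows. The 3 CCAAT matches of Ccnb2 began 87, 54 and 21 bases before the start, and the 3 of Cdk1 began 208, 80 and 48 bases before it. In Plk1 the TTTGAA match lay after the start, outside the printed bases. Ccnb2 had a further TTTGAA match there, at base 5 from the start, and the TTCGAA match of Cdc25b also lay after the start. These matches are letters in a window and say nothing of what bound there.

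In control FGOs the members spanned from 42.0 ± 3.7 TPM (SD, n = 3) for Cdk1 to 552 ± 24 TPM (SD, n = 3) for Ccnb1. Ccnb1 was thus the member with the highest level, and its catalytic partner the one with the lowest. In order of mean level they were Ccnb1, Wee2, Plk1, Mos, Ccnb2, Fbxo43, Cdc25a, Ccnb3, Cdc25b and Cdk1. The neighbours Ccnb1 and Wee2, Plk1 and Mos, and Ccnb2 and Fbxo43 overlapped between libraries, and the other neighbours did not. In K36M FGOs the order was the same except that Mos stood above Plk1, which it did in each of the 3 libraries. Ccnb1 ranked 238 and Cdk1 4818 among all genes of the table by mean level in control FGOs.

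In two-cell embryos the order was another one. Wee2 had the highest mean level in both genotypes, with 426 ± 243 TPM (SD, n = 7) in control and 440.5 ± 328.3 TPM (SD, n = 8) in K36M embryos. Mos had the lowest mean in control embryos, 11.6 ± 18.4 TPM (SD, n = 7), and Fbxo43 the lowest in K36M embryos, 13.3 ± 10.2 TPM (SD, n = 8). All neighbours in the order overlapped between embryos except Plk1 and Cdk1 in K36M embryos, where the lowest level of Plk1 (181 TPM) was above the highest of Cdk1 (161 TPM). The plot of levels by library shows how close together the FGO libraries lay and how far apart the single embryos were. The SD of log2(TPM + 1) had a median over the 10 genes of 0.11 in control FGOs, 0.13 in K36M FGOs, 0.80 in control embryos and 1.06 in K36M embryos, beside 0.18, 0.22, 1.16 and 1.38 over all 17358 genes.

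**Figure D1:**
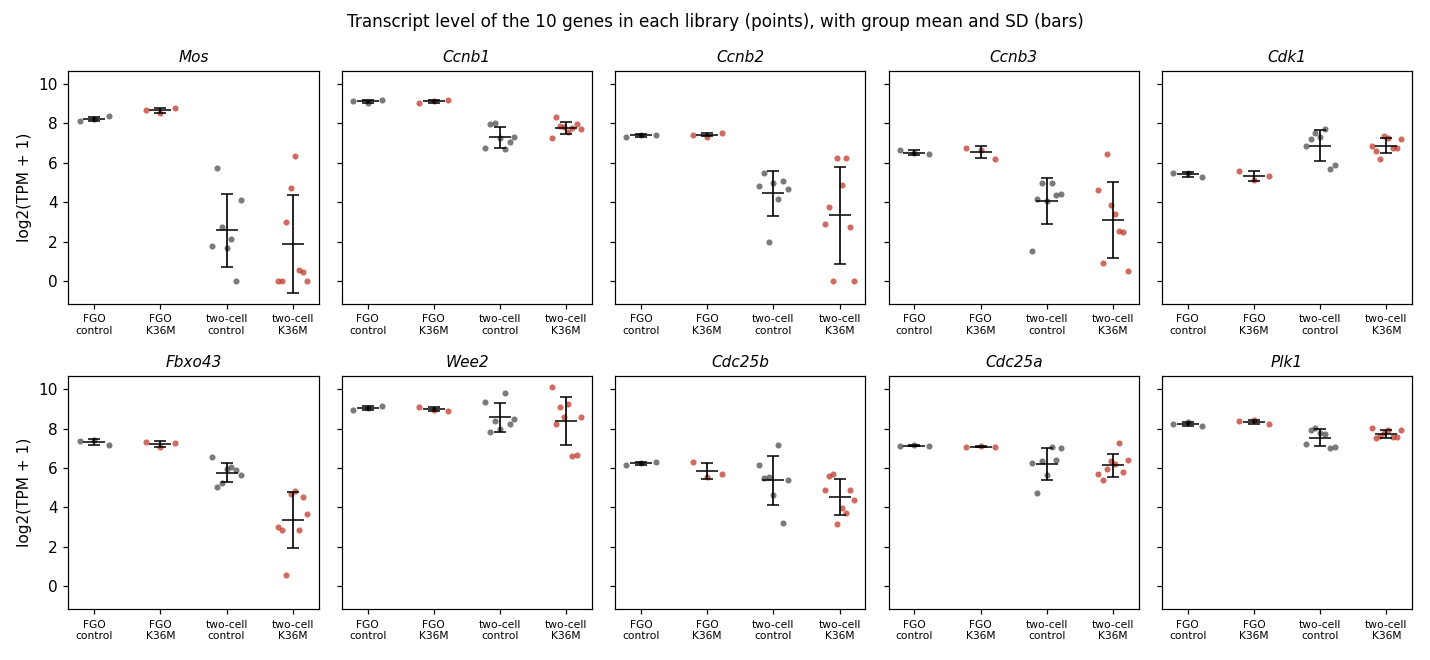
Level of each of the 10 genes as log2(TPM + 1) (vertical axis) in every library (points) of the 4 groups (horizontal axis), with the group mean and SD as bars. The 3 FGO libraries of a group lie close together, the embryos spread widely, Mos falls nearly to 0 in many embryos, Cdk1 alone has a higher mean in embryos, and the 8 K36M embryos lie below the 7 control embryos for Fbxo43.

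The comparison of K36M with control FGOs asks what the mutant histone did to these stored transcripts before meiosis resumed. None of the 10 genes passed the threshold, an adjusted p of 0.05 by limma on log2(TPM + 1) with Benjamini-Hochberg adjustment over all 13775 genes tested. By that rule 0.00726% of all genes were called, and 10.5% had an unadjusted p under 0.05. TPM gives shares of a library, so fewer cells of a kind in a pool and less RNA in each cell cannot be told apart. The median log2 fold change was -0.02 over the 10 genes and 0.01 over all genes.

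Mos (chromosome 4, 3870658 to 3872105 in GRCm38.p6), which encodes the kinase that starts the MAPK cascade in oocytes, had 279, 299 and 324 TPM in the control FGO libraries. It had 404, 365 and 443 TPM in the K36M libraries. The 3 K36M libraries all lay above the 3 controls, with means of 404 ± 39 and 301 ± 23 TPM (SD, n = 3 each). The log2 fold change was 0.42 (standard error, SE, 0.09, 95% confidence interval 0.21 to 0.64, unadjusted p = 0.00159, adjusted p = 0.306 by limma). Under the 14 alternatives the fold change was 0.36 to 0.49 and the adjusted p 0.0766 to 0.643. Mos was the only one of the 10 genes whose groups did not overlap, and of all genes tested 15.6% showed no overlap (7.46% with K36M higher). A permutation test of 3 libraries against 3 cannot give a p below 0.1. The summed level of the 8 oocyte genes was 14012 to 14179 TPM in control and 12278 to 13364 TPM in K36M FGOs, that of 10 granulosa cell genes was 127 to 145 and 136 to 209 TPM, and none of these 18 genes was at 0 in any FGO library. Their part in the Mos values was not tested. Nr5a2, at a mean of 71.0 TPM in control and 118 TPM in K36M FGOs, had the highest level of the granulosa list, and Fshr had 2.06 and 1.56 TPM.

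Cdc25b (chromosome 2, 131186436 to 131198511), the phosphatase whose loss keeps mouse oocytes from resuming meiosis, had 70.0, 75.1 and 78.5 TPM in the control FGO libraries. In the K36M libraries it had 77.5, 45.9 and 50.05 TPM. Replicates 2 and 3 were thus below all controls, and replicate 1 was among them. The log2 fold change was -0.40 (SE 0.19, 95% confidence interval -0.82 to 0.02, adjusted p = 0.491 by limma). Without K36M replicate 1 it was -0.62, with an adjusted p of 0.0406 by limma, and 300 genes in all passed the threshold in that fit. Without K36M replicate 2 it was -0.25 (adjusted p = 0.790 by limma), and without K36M replicate 3 it was -0.31 (adjusted p = 0.767).

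For the 8 remaining genes the control and K36M FGO libraries overlapped, with unadjusted p from 0.281 to 0.974 by limma. Ccnb1, for example, had 554, 527 and 575 TPM in control and 528, 550.4 and 581 TPM in K36M libraries. Cdc25a, another Cdc25 phosphatase, had 139, 142 and 137 TPM in control and 134, 138 and 134 TPM in K36M libraries. Their log2 fold changes lay between -0.11 (Fbxo43) and 0.10 (Plk1), and their 95% confidence intervals between -0.44 (Cdk1) and 0.36 (Ccnb3).

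The comparison of control FGOs with control two-cell embryos follows the members from the stored pool of the oocyte to the late two-cell stage. Levels in embryos do not tell mRNA left from the oocyte from mRNA made by the embryo. Of the 10 genes 5 fell and 1 rose past the adjusted threshold, while 4 did not pass it. Over all 16914 genes tested, 30.5% were called, 15% as higher and 15.5% as lower in embryos. The median log2 fold change was -1.23 over the 10 genes and 0.08 over all genes. In K36M, on other libraries, 5 fell and 1 rose as well, where 25.3% of 16677 genes were called, 9.86% as higher and 15.4% as lower. There the medians were -1.32 over the 10 genes and -0.16 over all genes. Stage, pooling against single embryos, the sire and the number of amplification cycles all changed together and cannot be told apart.

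Mos was nearly gone in most embryos. From 279 to 324 TPM in control FGOs, it went to 0 (lowest), 3.33 (median) and 51.5 TPM (highest) in control embryos. From 365 to 443 TPM in K36M FGOs, it went to 0, 0.430 and 80.0 TPM in K36M embryos, 3 of which were listed at 0. No embryo of either genotype reached the FGO levels. The log2 fold change was -5.65 (SE 0.96, adjusted p = 0.000754 by limma) in control and -6.77 (SE 1.31, adjusted p = 0.00178) in K36M, the furthest of the 10 genes in both.

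The B cyclins fell and Cdk1 rose. Ccnb1 (chromosome 13, 100778739 to 100786486), the main B cyclin of the oocyte, went from 527 to 575 TPM in control FGOs to 104 (lowest), 153 (median) and 253 TPM (highest) in control embryos. Its log2 fold change was -1.82 (SE 0.31, adjusted p = 0.000702 by limma) in control and -1.34 (SE 0.23, adjusted p = 0.000794) in K36M, where embryos had 152 to 317 TPM with a median of 218. FGOs and embryos did not overlap in either genotype.

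Ccnb2 (chromosome 9, 70407689 to 70421554), a B cyclin that can stand in for Ccnb1 in oocytes, went from 157 to 172 TPM in control FGOs to 2.98 (lowest), 27.3 (median) and 44.1 TPM (highest) in control embryos. In K36M embryos it was at 0, 9.56 and 75.3 TPM, with 2 embryos listed at 0. Its log2 fold changes were -2.94 (SE 0.63, adjusted p = 0.00348 by limma) in control and -4.07 (SE 1.26, adjusted p = 0.0294) in K36M. All embryos lay below all FGO libraries of their genotype.

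Ccnb3 (chromosome X, 6979652 to 7041635), the B cyclin needed for anaphase of the first division, went from 85.9 to 98.8 TPM in control FGOs to 1.87 (lowest), 19.5 (median) and 30.7 TPM (highest) in control embryos. In K36M embryos it was at 0.427, 7.12 and 86.5 TPM, and the highest of these, replicate 3, lay above the lowest K36M FGO library at 71.8 TPM. The log2 fold changes were -2.45 (SE 0.66, adjusted p = 0.0136 by limma) in control and -3.43 (SE 1.06, adjusted p = 0.0287) in K36M.

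Cdk1 (chromosome 10, 69335146 to 69352912), the catalytic partner of all B cyclins, went the other way. It had 44.3, 43.9 and 37.8 TPM in control FGOs and 51.3 (lowest), 146 (median) and 206 TPM (highest) in control embryos, a log2 fold change of 1.45 (SE 0.44, adjusted p = 0.0249 by limma). K36M FGOs had 46.9, 33.4 and 38.7 TPM and K36M embryos 71.1, 111 and 161 TPM, a log2 fold change of 1.54 (SE 0.35, adjusted p = 0.00489). All embryos were above all FGO libraries of their genotype. With control embryo 4 added, at a lower level, the groups overlapped in control and the adjusted p was 0.0793.

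Fbxo43 (chromosome 15, 36150060 to 36169940), the gene of the metaphase arrest factor Emi2, had 163, 172 and 143 TPM in control FGOs. Control embryos had 32.2 (lowest), 59.0 (median) and 92.7 TPM (highest), a log2 fold change of -1.55 (SE 0.35, adjusted p = 0.00478 by limma). K36M FGOs had 160.0, 132 and 153 TPM and K36M embryos 0.479, 9.34 and 27.9 TPM, a log2 fold change of -3.84 (SE 0.82, adjusted p = 0.00348). In both genotypes every embryo was below every FGO library.

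Wee2, Cdc25b, Cdc25a and Plk1 did not pass the threshold between stages in either genotype, but each passed it in at least 1 genotype under 1 or more alternative settings. With array weights, which give libraries that stand apart less weight, Cdc25b (adjusted p = 0.0211 in control and 0.0205 in K36M by limma), Cdc25a (0.00211 and 0.00596) and Plk1 (0.0109 and 0.00585) passed the threshold in both genotypes, and Wee2 had 0.00767 in control and 0.0993 in K36M. Wee2 (chromosome 6, 40435246 to 40466815), the inhibitory kinase, ranked 340 among all genes by mean level in control embryos, with 225 (lowest), 329 (median) and 878 TPM (highest) in control embryos against 489.9 to 567 TPM in control FGOs. Its log2 fold changes were -0.48 (95% confidence interval -1.29 to 0.33) in control and -0.58 (-1.88 to 0.72) in K36M. Wee2 overlaps Dennd11 in the annotation, and the strand setting of the counting is not stated, so reads of both genes may not be told apart. Cdc25b had log2 fold changes of -0.86 (-2.27 to 0.54) in control and -1.31 (-2.60 to -0.01, adjusted p = 0.134 by limma) in K36M.

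Cdc25a (chromosome 9, 109875518 to 109893895) had 137 to 142 TPM in control FGOs and 25.4 (lowest), 81.4 (median) and 135 TPM (highest) in control embryos. All control embryos were below the FGO libraries, but the adjusted p by limma was 0.146 for a log2 fold change of -0.92 in control, and 0.0954 for -0.95 in K36M, where it was 0.0499 after median-of-ratios scaling and 0.0461 with the replicate number as a block. Plk1 (chromosome 7, 122159435 to 122169884) had 277 to 325 TPM in control FGOs and 130 (lowest), 213 (median) and 264 TPM (highest) in control embryos. Its log2 fold changes were -0.69 (adjusted p = 0.0710 by limma) in control and -0.60 (adjusted p = 0.0553) in K36M, and embryos lay below FGOs in both. Plk1 passed the threshold in both genotypes after quantile normalization (adjusted p = 0.0348 and 0.0191 by limma) and after median-of-ratios scaling (0.0196 and 0.0232), and in K36M without the filter on low values (0.0290). In all, the stages did not overlap for 8 of the 10 genes in control (7 lower and 1 higher, against 18.2% and 14.5% of all genes, 32.7% together) and for 6 in K36M (5 lower and 1 higher, against 16.9% and 9.41%, 26.3% together).

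**Figure D2:**
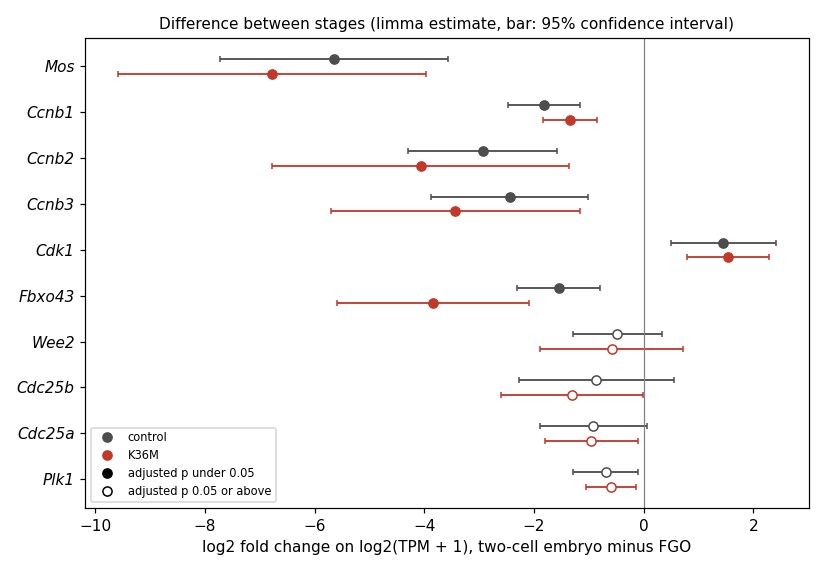
Log2 fold change on log2(TPM + 1) of two-cell embryos against FGOs (horizontal axis) for each gene (vertical axis) in control and K36M, with 95% confidence intervals from limma as bars and filled points where the adjusted p was under 0.05. Filled points lie to the left for Mos, the 3 B cyclins and Fbxo43 and to the right for Cdk1, in both genotypes.

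Fewer calls were made with an FGO library left out. With any 1 of the 3 control FGO libraries left out, 4 of the 10 genes were called in control, without Ccnb3 and Cdk1, while calls over all genes went from 5159 to between 3015 and 3056. With any 1 of the 3 K36M FGO libraries left out, 4 were called in K36M, without Ccnb2 and Ccnb3, while calls over all genes went from 4217 to between 2342 and 2382. The same pair was not called in K36M with a pseudocount of 0.1 (adjusted p = 0.0852 and 0.0521 by limma), and Ccnb2 was not called there without the filter on low values (adjusted p = 0.0509).

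The comparison of K36M with control two-cell embryos asks whether these transcripts differed between embryos of K36M and control females. None of the 10 genes passed the adjusted threshold, and of 17362 genes tested 0% did by limma, while 7.71% had an unadjusted p under 0.05, Fbxo43 among the 10 members. The median log2 fold change was -0.44 over the 10 genes and -0.26 over all genes. This shift of all genes was -0.04 after quantile normalization and -0.18 after median-of-ratios scaling.

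Fbxo43 had 32.2 (lowest), 59.0 (median) and 92.7 TPM (highest) in the 7 control embryos. The 8 K36M embryos had 0.479, 9.34 and 27.9 TPM. All K36M embryos lay below all of these control embryos, with means of 13.3 ± 10.2 (SD, n = 8) and 56.5 ± 20.1 TPM (SD, n = 7). The log2 fold change was -2.39, or 5.25-fold lower on this scale (SE 0.60, 95% confidence interval -3.64 to -1.15, unadjusted p = 0.000604, adjusted p = 0.349 by limma). An exact two-sided permutation test of this gene alone gave p = 0.000311, the smallest that 7 against 8 embryos allow. Fbxo43 was the only member whose groups did not overlap, as was so for 0.115% of all genes tested (20 genes, 0.0922% with K36M lower), and it ranked 30 of 17362 by p.

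The Fbxo43 difference kept its direction in all 24 alternatives, with log2 fold changes of -2.64 to -1.99 and adjusted p of 0.236 to 0.634. Control embryo 4 had 11.8 TPM, inside the range of the K36M embryos. With it added the log2 fold change was -2.13, the exact permutation p 0.00202, and the groups overlapped. Fewer genes were above 0 in K36M embryos, as given above, and the summed oocyte genes were at 465 to 1224 TPM (median 737) in control and 436 to 943 TPM (median 574) in K36M embryos. The part of both in the Fbxo43 values was not tested. In FGOs the same gene had a log2 fold change of -0.11 (95% confidence interval -0.35 to 0.14). The test of the difference between the genotype effects in embryos and FGOs gave -2.29 (SE 0.91, unadjusted p = 0.0191, adjusted p = 1.00 by limma). None of the 10 genes passed that test, nor did any of 17358 genes (0%), of which 1.15% had an unadjusted p under 0.05.

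Ccnb1 had the opposite sign in embryos. The control embryos had 104 (lowest), 153 (median) and 253 TPM (highest) and the K36M embryos 152, 218 and 317 TPM, so that the groups overlapped widely. Its log2 fold change was 0.48 (95% confidence interval -0.08 to 1.04, adjusted p = 0.679 by limma, exact permutation p = 0.0488), which did not pass the threshold over all genes. Plk1 was also slightly higher in the mean, with 192 ± 54 TPM (SD, n = 7) in control and 215 ± 30 TPM (SD, n = 8) in K36M embryos and a log2 fold change of 0.20 (-0.31 to 0.70). Over the 24 alternatives the log2 fold change of Plk1 ran from 0.06 to 0.37.

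Cdk1 had a log2 fold change of -0.0047 (95% confidence interval -0.71 to 0.71) between genotypes in embryos, with a sign that depended on the scaling. For Mos, Ccnb2, Ccnb3 and Cdc25b the log2 fold changes were -0.70, -1.10, -0.97 and -0.84, each with an interval that included 0 and a lower bound between -2.98 (Ccnb2) and -2.02 (Cdc25b). Such intervals leave changes of several fold undetectable in single embryos. With each embryo left out in turn, the log2 fold changes ran from -1.34 to -0.18 (Mos) and -1.51 to -0.62 (Ccnb2). Those of Ccnb3 and Cdc25b ran from -1.45 to -0.60 and from -1.20 to -0.54. Wee2 and Cdc25a had log2 fold changes of -0.18 (-1.07 to 0.72) and -0.08 (-0.90 to 0.75). For all 10 genes the plot of genotype differences sets the narrow intervals in FGOs beside the wide ones in embryos.

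**Figure D3:**
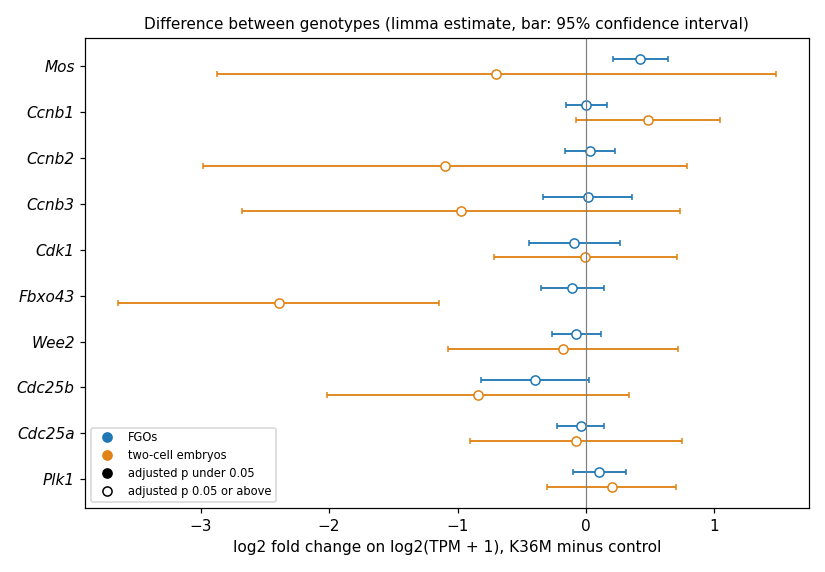
Log2 fold change on log2(TPM + 1) of K36M against control (horizontal axis) for each gene (vertical axis) in FGOs and in two-cell embryos, with 95% confidence intervals from limma as bars. All points are open, since no adjusted p was under 0.05, and the intervals that leave out 0 are those of Mos in FGOs and Fbxo43 in two-cell embryos.

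Ratios of TPM within a library do not depend on the library's total, and these ratios were chosen after the members' values were seen, so they are given as a description without a test. The summed TPM of Ccnb1, Ccnb2 and Ccnb3 divided by that of Cdk1 was 17.9, 18.3 and 22.0 in the 3 control FGO libraries. In control embryos it was 0.735 (lowest), 1.60 (median) and 3.56 (highest). The means were 19.4 ± 2.3 (SD, n = 3) and 2.00 ± 1.13 (SD, n = 7), and every embryo lay below every FGO library. In K36M the means were 20.97 ± 3.57 (SD, n = 3) and 2.43 ± 1.07 (SD, n = 8), again without overlap. Between genotypes this ratio overlapped in both stages.

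In FGOs Ccnb1 made up 68.2 ± 1.0% of the summed B cyclin TPM in control and 67.7 ± 2.1% in K36M (SD, n = 3 each). In embryos its part was 77.5 ± 6.2% (SD, n = 7) in control and 84.3 ± 11.7% (SD, n = 8) in K36M. Wee2 divided by the sum of Cdc25a and Cdc25b was 2.47 ± 0.15 and 2.60 ± 0.03 (SD, n = 3 each) in control and K36M FGOs, and 3.16 ± 0.73 (SD, n = 7) and 4.87 ± 4.22 (SD, n = 8) in the embryos, where single K36M embryos ran from 0.586 to 14.1.

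Fbxo43 divided by Plk1 was 0.135 (lowest), 0.306 (median) and 0.633 (highest) in control embryos. In K36M embryos it was 0.0024, 0.0414 and 0.115, so that the genotypes did not overlap. In FGOs the ratio was 0.529 ± 0.014 in control and 0.461 ± 0.067 in K36M (SD, n = 3 each), and the groups overlapped. Summed over all 10 genes, the TPM was 1162 ± 322 (SD, n = 7) in control and 1169 ± 319 (SD, n = 8) in K36M embryos, against 2355 ± 52 and 2427 ± 79 (SD, n = 3 each) in FGOs.

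**Figure D4:**
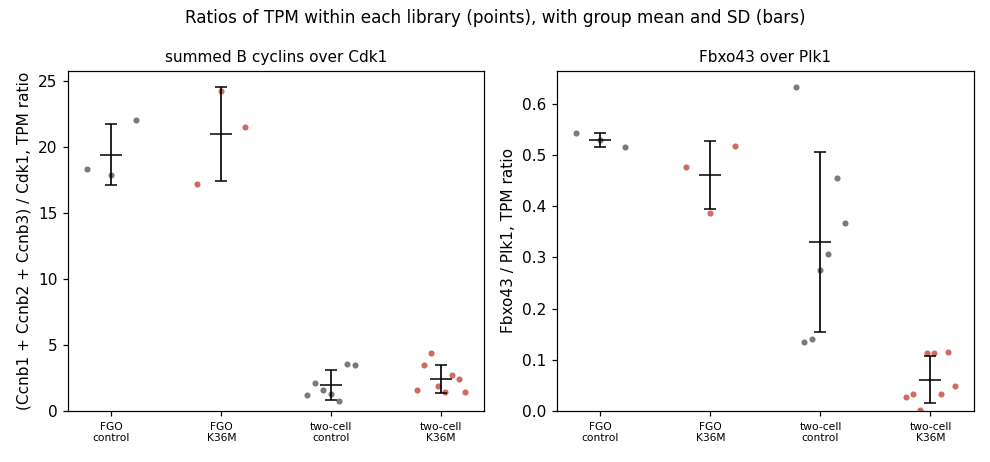
Ratios of TPM within each library (points, vertical axes from 0) in the 4 groups, with group mean and SD as bars, for the summed B cyclins over Cdk1 (left) and Fbxo43 over Plk1 (right). The left ratio is near 20 in FGOs and below 5 in every embryo, and on the right the K36M embryos lie below all control embryos.

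Single embryos did not vary alike in all members. In control embryos 7 and 8, Cdk1 was at 51.3 and 58.3 TPM, the lowest of the 7, and Plk1 was at 130 and 135 TPM, also the lowest. Control embryo 7 also had the fewest genes above 0 of the 7 (12115) and the lowest summed oocyte genes (465 TPM). Control embryo 8 had 14389 genes above 0 and 682 TPM of the oocyte genes. The part of these library differences in the low values was not tested. Wee2 was at 878 TPM in control embryo 6, which also had the highest Cdk1 (206 TPM) and the highest Cdc25b (144 TPM). Mos was highest in K36M embryo 5 (80.0 TPM), and Ccnb3 in K36M embryo 3 (86.5 TPM), which had the lowest Fbxo43 (0.479 TPM). No embryo of either genotype was the lowest in every member.

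The other genes of the pathway were followed in 3 lists. No gene of any list passed the adjusted threshold between genotypes, in FGOs or in embryos (0.00726% and 0% of all genes). The first list held 16 further regulators of the Cdk1 switch, of which 15 passed the filter on low values and Ccna1 did not. Between stages 3 rose and 2 fell in control, and 3 rose and 1 fell in K36M, of 15 tested in each, beside 30.5% and 25.3% of all genes called. The median log2 fold changes were 0.00 and -0.30. Cdc25c, a further Cdc25 phosphatase, rose from 12.3 ± 1.1 TPM (SD, n = 3) in control FGOs to 188 ± 58 TPM (SD, n = 7) in control embryos, a log2 fold change of 3.77 (adjusted p = 2.86e-06 by limma), and by 3.10 (adjusted p = 0.000801) in K36M. Ccna2, the A-type cyclin of dividing cells, rose by 1.70 (adjusted p = 0.000367) in control and 1.53 (adjusted p = 0.000957) in K36M. The phosphatase subunit Ppp2r2a rose by 0.92 (adjusted p = 0.0443) in control and 1.43 (adjusted p = 0.0130) in K36M. Mastl, the Greatwall kinase that restrains this phosphatase, fell by 1.92 on the log2 scale (adjusted p = 0.000334 by limma) in control and by 2.22 (adjusted p = 0.00345) in K36M. Arpp19, a substrate of Mastl, had log2 fold changes of -2.003 (adjusted p = 0.0478 by limma) in control and -1.95 (adjusted p = 0.0580) in K36M, and is named after its values were seen.

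The second list held 7 genes downstream of Mos, the MAPK kinases, MAP kinases and ribosomal S6 kinases. In control 1 rose and 1 fell between stages, beside 30.5% of all genes called, and in K36M none passed the threshold, beside 25.3%. Map2k2 had log2 fold changes of 0.90 (adjusted p = 0.0417 by limma) in control and 0.19 (adjusted p = 0.77) in K36M. Mapk3 had -1.83 (adjusted p = 0.0342) in control and -2.19 (adjusted p = 0.0852) in K36M, and both are named after their values were seen. The median log2 fold changes were 0.00 in control and -0.64 in K36M.

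The third list held 19 genes of the APC/C, its activators, inhibitor and ubiquitin-conjugating enzymes. In control 2 rose and 3 fell, and in K36M 3 rose and 3 fell, beside 30.5% and 25.3% of all genes called, with median log2 fold changes of -0.09 and -0.34. Cdc20, an activator of the APC/C, rose by 1.59 (adjusted p = 0.0223 by limma) in control and by 1.84 (adjusted p = 0.00596) in K36M, from 72.8 ± 2.4 TPM (SD, n = 3) in control FGOs to 252 ± 116 TPM (SD, n = 7) in control embryos. The subunit Cdc23 rose by 1.42 (adjusted p = 0.0434) and 1.63 (adjusted p = 0.0401). The subunit Anapc4 fell by 2.66 on the log2 scale (adjusted p = 0.0115 by limma) in control and by 1.41 (adjusted p = 0.0446) in K36M, and Anapc16 had log2 fold changes of -1.48 (adjusted p = 0.0102) and -2.199 (adjusted p = 0.0192). The rest passed the threshold in 1 genotype and are named after their values were seen. Cdc27 had log2 fold changes of -0.95 (adjusted p = 0.011 by limma) in control and -0.77 (adjusted p = 0.0549) in K36M, Fzr1 had -2.58 (adjusted p = 0.0831) and -2.80 (adjusted p = 0.00771), and Ube2c had 0.72 (adjusted p = 0.243) and 1.06 (adjusted p = 0.0056). For these 3 genes and for Arpp19, Map2k2 and Mapk3, the difference in stage change between genotypes had unadjusted p from 0.208 (Map2k2) to 0.961 (Arpp19) by limma, and none passed the adjusted threshold. Fbxo5, the paralog of Fbxo43 that restrains the APC/C in dividing cells, was at 256 ± 78 TPM (SD, n = 7) in control embryos and 181 ± 118 TPM (SD, n = 8) in K36M embryos, and was called in no comparison.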

How the data were processed

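RNA-seq libraries of 6 FGO pools and 16 single late two-cell embryos were grouped by their labels, and 21 entered the main comparisons. According to the methods and labels, the authors trimmed the reads with Trim Galore, mapped them to mm10 with HISAT2, removed ribosomal RNA reads with bedtools, counted genes with featureCounts and tested counts with edgeR. The authors deposited TPM values, which sum to the same total in each library. Gene annotation, gene lengths and strand setting behind these values are not given in the sources used here, so overlapping genes are uncertain (Wee2 with Dennd11, Cdc25a with Mir7089). TPM values hold no read numbers, and the read totals listed by the study were not used here, so no interval for counting error is given.

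Values were analysed as log2(TPM + 1) in limma 3.58.1 (R 4.3.3), using lmFit and eBayes with a trend. Genes needed a mean of 1 TPM in the libraries of the fit, p-values were adjusted by Benjamini-Hochberg over all of them, and the threshold was 0.05. FGOs, embryos and each genotype's stages were fitted apart, and 1 fit over 21 libraries tested the interaction. The script was tested on simulated data. On this scale, fold changes of genes with low TPM are understated. Single values were compared by exact two-sided permutation tests (scipy 1.17.1, Python 3.11.15, numpy 2.4.6, pandas 2.3.3). Figures were drawn with matplotlib 3.10.9. Positions and windows came from RefSeq for GRCm38.p6, the assembly behind mm10, in which 99.82% of the symbols were found.

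The members, the pathway lists and the marker lists were chosen with earlier results of these data known. All members were named, along with pathway genes past the threshold between genotypes, or past it in both stage comparisons and among the 3 highest or lowest fold changes of their list. For each member the 3 genes most like it over the embryos were also named. Alternatives were a pseudocount of 0.1, no filter on low values, a filter at 5 TPM, quantile normalization, scaling by the median of ratios, no trend, array weights, a block for the replicate number, the removal of each library (FGO libraries only, in the stage and interaction fits), and control embryo 4 put back. The ratios within libraries, and their alternatives, were added after seeing the data. The ChIP-seq, CUT&RUN and bisulfite samples were not used here.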

Additional observations from a re-analysis of the deposited data

Results flagged for a closer look

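In 20 groups of 4 or more embryos (10 genes, 2 genotypes), 3 held an embryo whose distance from the nearest other, relative to the range of the group on the log2(TPM + 1) scale, was above Dixon's 95% critical value (0.568 for 7 and 0.526 for 8 embryos). Chance gives about 1 in 20 groups. Ccnb2 was at 2.98 TPM in control embryo 3, below the other 6 control embryos at 17.0 to 44.1 TPM. Ccnb3 was at 1.87 TPM in control embryo 1, below the others at 16.0 to 30.7 TPM. Fbxo43 was at 0.479 TPM in K36M embryo 3, below the others at 6.20 to 27.9 TPM. Without this embryo the log2 fold change of Fbxo43 between genotypes was -1.99 (adjusted p = 0.386 by limma).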

How the results depend on the processing

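Between genotypes no member was called in FGOs, embryos or the interaction under any alternative, except that Cdc25b was called in FGOs without K36M replicate 1, so that the count ran from 0 to 1 with each FGO library left out. Between stages 6 members were called in each genotype. Array weights called 10 in control and 9 in K36M, and the replicate number as a block called 3 in K36M. Over all genes, array weights called 9396 in control (5159 without weights) and 8212 in K36M (4217 without weights), the block called 2385 in K36M, and leaving out 1 FGO library left 3015 to 3056 calls in control and 2342 to 2382 in K36M. CCAAT was found in 4 of 8 windows on the gene's strand only. Control Cdk1 was no longer called without the mean-variance trend (adjusted p = 0.0510) or with control embryo 4 added. The block ended the calls of Ccnb2 and Ccnb3 in both genotypes and of Ccnb1 and Cdk1 in K36M, and added that of Cdc25a in K36M (adjusted p = 0.0461 by limma).

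Signs turned for differences that were not called. In FGOs, Ccnb3 was -0.041 after quantile normalization and -0.017 with array weights, and Ccnb1 was -0.0077 after median-of-ratios scaling. In embryos, Cdk1 was 0.0073 after quantile normalization, 0.10 after median-of-ratios scaling and 0.17 with control embryo 4 added, and Cdc25a was 0.015 and 0.029 after these scalings and 0.20 with array weights. In the interaction, Cdc25a was 0.072 after quantile normalization, 0.11 after median-of-ratios scaling and 0.24 with array weights, Wee2 was 0.049 after median-of-ratios scaling, and Plk1 was -0.038 with array weights. With each library left out in turn, the FGO log2 fold changes ran from -0.034 to 0.036 (Ccnb1), -0.011 to 0.076 (Ccnb2), -0.098 to 0.19 (Ccnb3) and -0.21 to 0.025 (Cdk1). Those of embryos ran from -0.20 to 0.13 (Cdk1), -0.43 to 0.078 (Wee2) and -0.32 to 0.070 (Cdc25a), and that of Cdk1 in the interaction from -0.029 to 0.21. The cause of these turns was not tested.

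Whether shared replicate numbers pair the samples cannot be settled from so few libraries. Correlations of same-numbered deviations were 0.0145 to 0.101 in FGOs and -0.101 to 0.0968 in embryos. They were -0.0030 to 0.011 between control stages and -0.0086 to 0.024 between K36M stages. A library correlated best with its own number in 2 of 3, 1 of 7, 0 of 3 and 1 of 3 pairs. With the replicate block, no member was called between genotypes, 4 were called between control stages and 3 between K36M stages, and Wee2 in K36M turned to 0.17. No counting error was computed for low values in single embryos, since TPM holds no reads per gene.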

Other observations

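For each member, the genes whose log2(TPM + 1) moved most like it over the 15 embryos, each embryo taken as its difference from its group mean, are given as a description without a test. Every embryo is 1 library shared by both genes, and the highest of 17362 coefficients are named. Wee2 was most like Usp9x (Pearson r = 0.935), Fam241b (0.902) and Wapl (0.902). Cdk1 was most like Ntan1 (0.892), Chrng (0.858) and Timm9 (0.833), and Plk1 was most like Ntan1 (0.867), Borcs7 (0.839) and Cdk1 (0.827), the only member among the genes most like another member. Mos was most like Pkd2 (0.891), Mxra7 (0.817) and Chordc1 (0.817). Ccnb1 was most like Ints1 (0.836), Eif4a1 (0.831) and Snx6 (0.822), Ccnb2 was most like Gas2l1 (0.886), Prrg2 (0.847) and Tmod2 (0.820), and Ccnb3 was most like Msn (0.886), Bclaf3 (0.868) and Cdh9 (0.852). Fbxo43 was most like Epb41l4a (0.856), Nxn (0.847) and Gm45927 (0.839). Cdc25b was most like Pum2 (0.893), Wnt9b (0.858) and Scamp2 (0.839), and Cdc25a was most like Zfp760 (0.842), Zfp451 (0.807) and Lrrk2 (0.80). Of these genes, Borcs7 had a mean of 2.95 TPM in control embryos and was listed at 0 in all 8 K36M embryos, so that its coefficient rests on the 7 control embryos. Chrng (5.32 TPM in control and 0.227 TPM in K36M embryos) and Lrrk2 (2.35 and 0.0886 TPM) were also near 0 in K36M embryos.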
